A study of Homo sapiens with 2 samples.

Results

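The DNAJ genes of human 293T cells were described on 2 oligonucleotide arrays of immunoprecipitated RNA. A gene was taken as a member when the platform annotation gave its probe set exactly 1 symbol and that symbol began with DNAJA, DNAJB or DNAJC followed by a digit. This gave 47 of the 19775 named genes, of which 43 were protein-coding and 4 were noncoding transcripts named after a DNAJ gene. Only the coding genes entered the counts below. They fell into 4 genes of class A, 12 of class B and 27 of class C. The series compared 1 array per group. Both arrays came from 293T, an established cell line of human embryonic kidney origin that carries the SV40 large T antigen. One group was transfected with synthetic miR-941 and its RNA was recovered with an Ago2 antibody. Ago2 is the Argonaute protein that carries microRNAs and brings them to their target mRNAs. The control group was transfected with a scrambled oligonucleotide. Cells received each oligonucleotide at 30 nmol/l. The labels disagree on the control: by title and description it was precipitated with Ago2, by its antibody entry with nonimmune IgG beads. In the latter case the effects of oligonucleotide and antibody cannot be told apart. With no input RNA on either array, less recovery in the precipitate and less mRNA in the cells cannot be told apart either.

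DNAJ proteins, also called HSP40 or J-domain proteins, deliver unfolded or assembled client proteins to HSP70 chaperones and stimulate their ATP hydrolysis through the J domain. Class A proteins resemble the bacterial DnaJ protein over most of their length and keep its zinc-binding region, which class B proteins lack. Class C proteins share only the J domain and act at particular sites in the cell. DNAJC5, or cysteine string protein, sits on secretory vesicles, where it works with HSC70 and SGTA to keep the SNARE protein SNAP25 folded. Its gene also contains the miR-941 genes, so DNAJC5 is the host gene of the microRNA that was added here.

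The sequences of the microRNA and its precursors are shown because they tie DNAJC5 to the treatment. In RefSeq (GRCh38.p14) the mature miR-941 has 23 bases, printed here with its seed (bases 2 to 8) in capitals.
miR-941: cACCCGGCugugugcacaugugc
A target site for the seed reads GCCGGGT, written as DNA; such sites were not searched for in the DNAJ mRNAs. None of the other mature human microRNAs in the same table had this seed (2370 names in all, miR-941 included). The 5 miR-941 genes all lay within DNAJC5 on chromosome 20, the first at chr20:63919449-63919520 and the last at chr20:63919868-63919939 on the plus strand. Each hairpin spans 72 bases, and MIR941-2 and MIR941-3 each start 56 bases after the one before, so neighbouring hairpins overlap there by 16 bases. Hairpins are printed with the mature strand, positions 47 to 69, in capitals.
MIR941-1: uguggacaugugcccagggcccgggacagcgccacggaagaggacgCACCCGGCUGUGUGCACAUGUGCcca
MIR941-3: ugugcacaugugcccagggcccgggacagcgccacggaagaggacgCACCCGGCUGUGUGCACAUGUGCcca
MIR941-4 and MIR941-5 had the sequence of MIR941-3. The only difference of these 3 from MIR941-1 was G5C, counted from the 5′ end of the hairpin, and it lies outside the mature strand. The sequence of MIR941-2 was not available, so this comparison covers 4 hairpins.

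No DNAJ gene differed by 2-fold between the arrays. Values are those the authors deposited for each probe set, read as log2, and a gene was represented by the probe set with the highest mean of both arrays. A gene was taken as detected when that mean was above 0.92, the median over all probe sets. Of the 43 coding genes 37 were detected, against 66.5% of all named genes (13150 of 19775). Among the 37, 14 read higher after miR-941, 17 read lower and 6 had identical values on the arrays. Over all detected genes 46.3% were higher, 42.4% lower and 11.3% equal. The split between higher and lower turned with the centring. Centred on the median of the detected genes (4.38 on the control array, 4.36 on the other), 21 DNAJ genes were higher and 16 lower, and 58.5% of all detected genes were higher. Centred on the median of all probe sets (0.92 and 0.98), 13 were higher and 24 lower, and 58.7% of all detected genes were lower. The medians of the ER, cytosolic and mitochondrial DNAJ genes and of the HSP70 genes also had opposite signs under these 2 centrings. Each centring moved all genes by the same amount, which put the 6 DNAJ genes with identical values on 1 side. Before centring, the ER, cytosolic and HSP70 medians were 0.00 and the mitochondrial median was 0.03. The median difference, miR-941 minus control, was 0.00 for the DNAJ genes and 0.00 for all detected genes. The central range between the quartiles was -0.16 to 0.17 for the DNAJ genes and -0.19 to 0.21 for all. At 1.5-fold 1 DNAJ gene was higher and none was lower, where 2.94% of all detected genes were higher and 2.87% lower by that much. At 2-fold the shares over all detected genes were 0.228% higher and 0.289% lower.

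**Figure D1:**
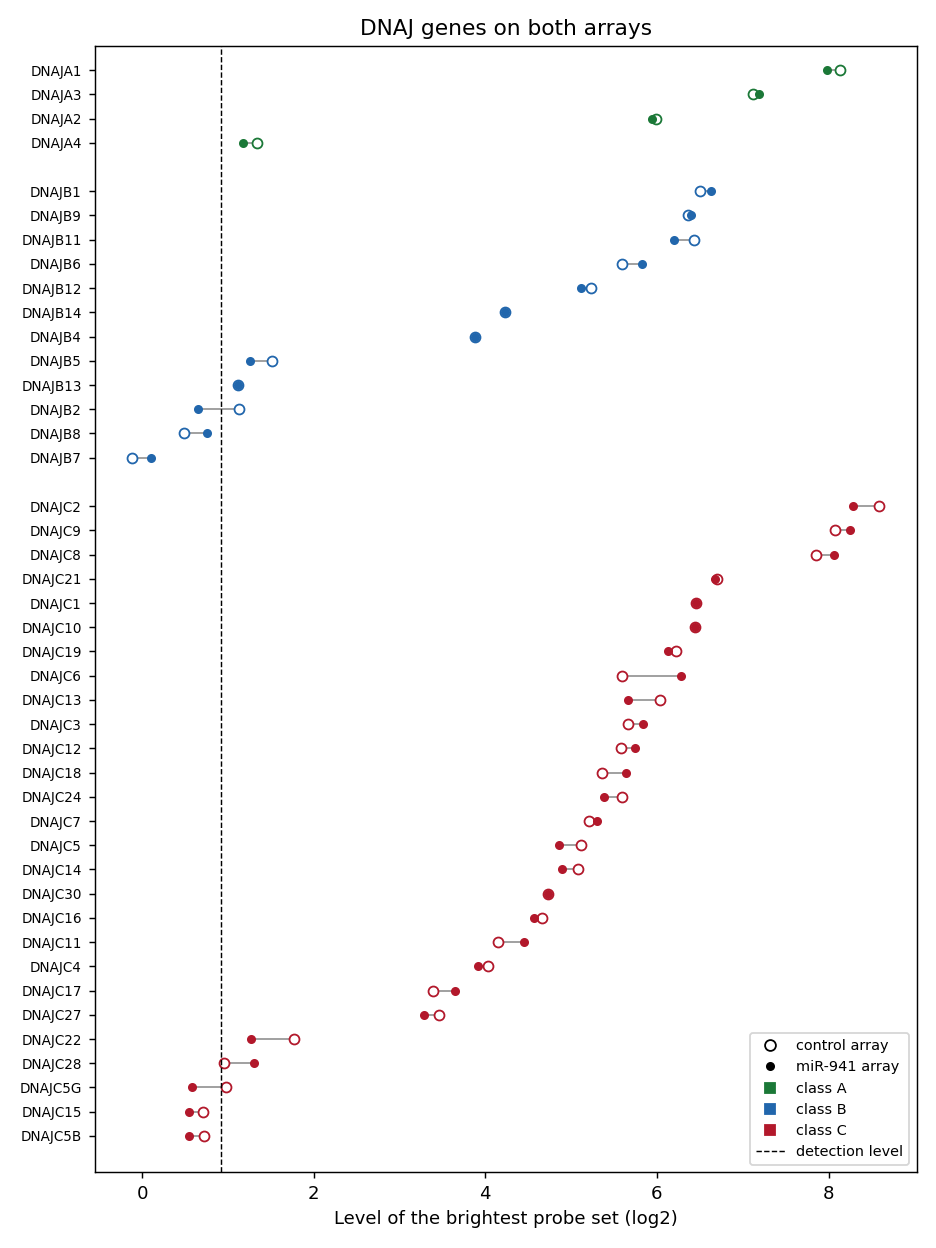
Level of each coding DNAJ gene on the control array (open circles) and the miR-941 array (filled circles), in log2 units of its brightest probe set, grouped by class, with the detection level of 0.92 as a dashed line. The paired circles lie close together for nearly all genes, and DNAJC6 has the widest separation among detected genes (5.60 and 6.28). Levels of different probe sets are not comparable with each other.

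With 1 array per group there was no test and no error between cultures, and a difference describes this pair of arrays alone. The only spread that the arrays hold is that between probe sets of a gene, which share 1 hybridisation per array and are not replicates. Taking the 2 brightest detected probe sets per gene, the SD of their differences within a gene was 0.29 when pooled over 6106 genes and 0.22 over the 26 DNAJ genes with at least 2. Of the 37 DNAJ genes, 31 lay within 0.29 of 0, as did 72.8% of all detected genes. The 5′ control of the actin mRNA read 7.15 (control) and 6.49 (miR-941), while its 3′ control read 9.85 and 9.81. The part of this in the differences below was not tested. Of 6 genes known from the parent line, VIM (8.82 and 8.70), KRT18, NEFM, INA and STMN1 were detected and KRT8 was not. Among 15 markers of other cell types with a probe set, 10 were not detected. HBB, which encodes beta globin, read 6.95 (control) and 7.54 (miR-941), while APOA1, PECAM1, VWF and COL1A1 read between 0.66 and 2.72. The part of these markers in the DNAJ values was not tested.

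DNAJC5 itself gave opposite directions on its 3 probe sets. The brightest read 5.11 (control) and 4.86 (miR-941), a log2 difference of -0.26. The second read 4.21 and 4.31, a difference of 0.09. The third read 2.21 and 2.46, a difference of 0.26. One probe set was thus lower and 2 were higher on the miR-941 array, with a median of 0.09 ± 0.26 (SD over 3 probe sets). All 3 have the suffix _s_at, which marks probes that can match more than 1 transcript. Probe sets on both sides of 0 were found for 46.4% of all genes with at least 2 detected. DNAJC5B and DNAJC5G, the close relatives of DNAJC5 described in testis, were below the detection level.

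The other DNAJ genes of vesicles and endosomes held the largest differences in both directions among those with values well above the detection level, judged on the brightest probe set. DNAJC6, which encodes the neuronal form of auxilin, the co-chaperone that strips clathrin from coated vesicles, read 5.60 (control) and 6.28 (miR-941). The difference of 0.68, or 1.60-fold, was the only one past 1.5-fold, and it rested on 1 detected probe set. GAK, the widely expressed form of auxilin, read 5.70 and 5.89 (0.19), with its other detected probe set lower. DNAJC13, an endosomal protein that acts on clathrin and the retromer sorting complex, read 6.04 and 5.67, a difference of -0.37 on its 1 detected probe set.

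**Figure D2:**
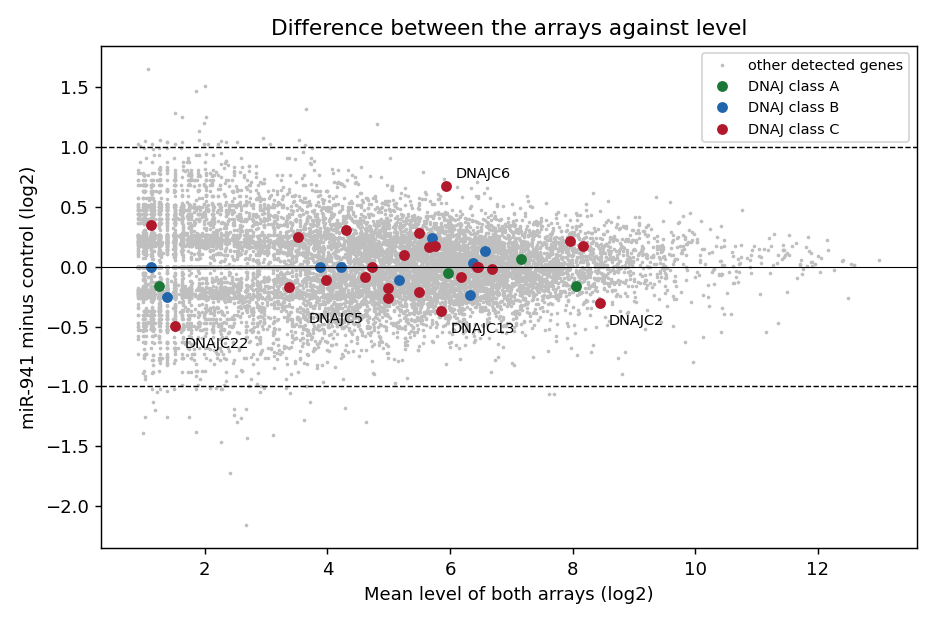
Difference between the arrays (miR-941 minus control, log2) against the mean level of both arrays (log2) for all 13150 detected genes in grey and the 37 detected DNAJ genes coloured by class. Dashed lines mark 2-fold, and every DNAJ gene lies between them, from -0.50 (DNAJC22) to 0.68 (DNAJC6).

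Class A genes, the general co-chaperones of the cytosol and the mitochondrial matrix, all lay between -0.16 and 0.07. Of 4 detected genes 1 was higher and 3 were lower, with a median of -0.11. DNAJA1, a cytosolic partner of HSC70, read 8.14 (control) and 7.98 (miR-941) (-0.16), while its second probe set read 6.95 and 6.98 (0.03). DNAJA2, its close relative, read 5.99 and 5.94 (-0.05), and its second probe set read 5.88 and 5.64 (-0.24). DNAJA3, which encodes the mitochondrial protein TID1, was the one class A gene that was higher, at 7.12 and 7.19 (0.07), and its second probe set read 5.81 and 5.94 (0.13). DNAJA4 read 1.34 and 1.18 (-0.16), near the detection level.

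Class B had a median of 0.00 over 9 detected genes, of which 3 were higher, 3 lower and 3 equal. DNAJB1, the heat-inducible HSP40 that works with HSP70 in refolding and disaggregation, read 6.50 (control) and 6.63 (miR-941) (0.13). Its second probe set read 4.36 and 4.52 (0.16), so both were slightly higher. DNAJB6, a suppressor of protein aggregation, had the highest difference of the class at 5.59 and 5.83 (0.24). This rests on its 1 probe set with exactly 1 symbol, and probe sets shared with another gene were left out. The 3 lower genes were DNAJB5 (1.51 and 1.26, -0.25), DNAJB11 (6.44 and 6.20, -0.24) and DNAJB12 (5.23 and 5.11, -0.11). DNAJB5 was near the detection level, and its other probe set, below that level, was higher by 0.24. DNAJB11 is an ER-resident partner of BiP with 1 probe set, and DNAJB12 is an ER membrane protein whose 3 detected probe sets ran from -0.20 to 0.30. DNAJB4 read 3.88 on both arrays, but its second probe set read 2.04 and 1.41 (-0.63). DNAJB14, another ER membrane protein, read 4.23 on both arrays, and its other probe sets were higher by 0.30 and 0.15. DNAJB13, described in sperm and cilia, read 1.12 on both.

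The ER genes of all classes, which serve BiP or the ER membrane, had the smallest SD of the compartments (0.12), judged on the brightest probe set. Of 9 detected genes 2 were higher, 4 lower and 3 equal, and all lay between -0.24 and 0.17. Their other detected probe sets ran more widely, from -0.37 (DNAJC14) to 0.30 (DNAJB12 and DNAJB14). DNAJC3, or P58IPK, an inhibitor of the kinase PERK that is induced by ER stress, read 5.66 (control) and 5.83 (miR-941) (0.17), with 2 of its 3 detected probe sets higher. DNAJB9, or ERdj4, which is also induced by ER stress, read 6.37 and 6.39 (0.03). Its other probe sets were both higher by 0.23, so all 3 were on the same side. DNAJC14 read 5.08 and 4.89 (-0.18) and was lower on both probe sets. DNAJC1 read 6.46 on both arrays with its other probe sets at -0.33 and 0.07. DNAJC10, an ER disulfide reductase, read 6.44 on both, with 2 of its 4 detected probe sets lower and 2 equal. DNAJC16 had -0.09 and was lower on both detected probe sets.

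Among the mitochondrial genes, 2 of the 4 detected were higher, 1 lower and 1 equal. DNAJC11, which acts at the contact sites of the inner membrane, read 4.15 (control) and 4.45 (miR-941) (0.30). Its second probe set read 2.90 and 3.20 (0.29), and these 2 differences were nearly the same. DNAJC19, a component linked to the protein import motor, read 6.22 and 6.13 (-0.08), while its second probe set was higher by 0.37. DNAJC30 read 4.73 on both arrays, and its second detected probe set was equal as well. DNAJC15 was below the detection level.

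The genes of the nucleus and the ribosome had a median of 0.17, with 3 of 5 higher and 2 lower. DNAJC8, a protein associated with the spliceosome, read 7.85 (control) and 8.07 (miR-941) (0.22), and its other probe sets were higher by 0.05 and 0.37. DNAJC9, a histone chaperone that recruits HSP70, read 8.08 and 8.25 (0.17), with its second detected probe set at 0.44. DNAJC17, also described with splicing, read 3.39 and 3.64 (0.25) on 1 probe set. On the lower side, DNAJC2, a ribosome-associated J protein that receives nascent chains with HSPA14, read 8.59 and 8.29 (-0.30) on its 1 detected probe set. DNAJC21, which acts in the maturation of the large ribosomal subunit, read 6.70 and 6.68 (-0.02). Its other detected probe sets read 4.33 and 3.78 (-0.55) and 1.29 and 0.61 (-0.68), so all 3 were lower but the brightest was nearly level.

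Some genes for which no compartment was listed, and cytosolic class C genes, completed the family. DNAJC18 was higher on all 3 probe sets, which read 5.35 and 5.64 (0.28), 3.43 and 3.79 (0.36), and 1.69 and 2.10 (0.41). Its median of 0.36 ± 0.06 (SD over 3 probe sets) was the most even among the 4 DNAJ genes whose detected probe sets, 3 or more in number, lay on 1 side of 0. DNAJC7, which binds HSP70 and HSP90 through its TPR repeats, read 5.21 and 5.30 (0.09), and its dim second probe set read 1.40 and 2.13 (0.73). DNAJC12, a co-chaperone of the aromatic amino acid hydroxylases, read 5.58 and 5.75 (0.17), with its other probe sets lower (-0.08 and -0.19). DNAJC24, which acts in diphthamide synthesis, read 5.60 and 5.38 (-0.21). DNAJC4 read 4.03 and 3.92 (-0.11), and its 4 detected probe sets ran from -0.52 to 0.42. DNAJC27 read 3.46 and 3.29 (-0.17), and its 4 probe sets ran from -0.20 to 0.71. The lowest difference, in DNAJC22 (1.77 and 1.27, -0.50), and that in DNAJC28 (0.95 and 1.30, 0.35) came from values near the detection level, and the second detected DNAJC22 probe set read 1.39 on both arrays.

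**Figure D3:**
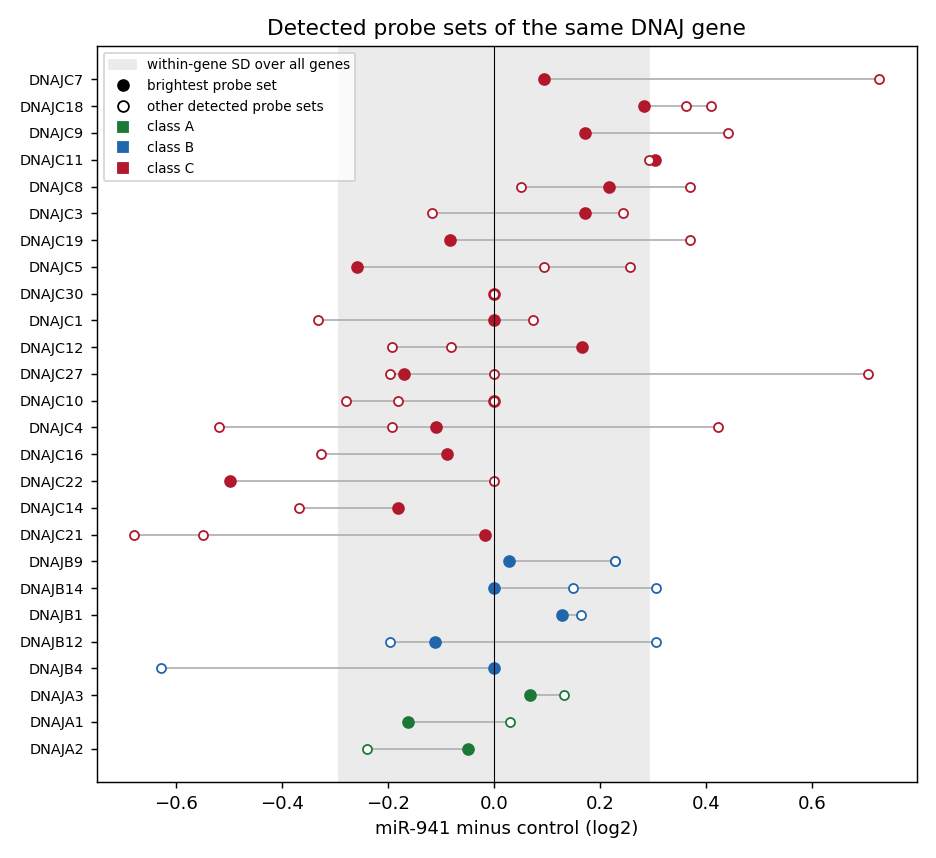
Differences (miR-941 minus control, log2) of all detected probe sets for the 26 DNAJ genes with at least 2, the brightest filled and the others open, coloured by class. The shaded band is the within-gene SD of 0.29 on either side of 0. All 3 probe sets of DNAJC18 lie on the higher side, whereas those of DNAJC5 lie on both sides of 0.

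Probe sets of the same gene lay on both sides of 0 for 9 of the 26 DNAJ genes with at least 2 detected, and over all such genes the share was 46.4%. For 12 of the 26 all detected probe sets differed one way, 8 higher and 4 lower, against 33.5% of all such genes (16.5% higher and 17.1% lower). Of 13 DNAJ genes with 3 or more, 4 had all one way (DNAJB9, DNAJC8 and DNAJC18 higher, DNAJC21 lower), against 19.1% of all genes (8.42% higher and 10.7% lower). The values were not continuous: 10 of the 79 detected DNAJ probe sets had identical values on the arrays (12.7%), as did 12.4% of all detected probe sets with 1 symbol. Of the other 69, 53 (76.8%) shared their difference to 6 decimals with another detected probe set, as did 74.6% of all detected probe sets whose values were not identical. The third DNAJC8 probe set and the second of DNAJC19 both read 3.78 (control) and 4.15 (miR-941), values that agreed to 5 decimals. An equal value therefore does not show an unchanged mRNA. Over the 37 genes the difference correlated with the mean level with Pearson's r of 0.13 and Spearman's rho of 0.09, and with the log10 span of the gene at r = 0.26 and rho = 0.28, descriptions across genes that share both arrays. Without the 2 genes farthest from the median of the measure, r was 0.26 for level and 0.41 for span.

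The level filter left out 6 coding genes, DNAJB2, DNAJB7, DNAJB8, DNAJC5B, DNAJC5G and DNAJC15. Just outside was DNAJB2, which read 1.13 (control) and 0.66 (miR-941). Just inside were DNAJB13 (1.12 on both) and DNAJC28. The 4 noncoding transcripts, DNAJB8-AS1, DNAJC27-AS1, DNAJC3-DT and DNAJC9-AS1, were all below the level. A further 3 probe sets that name a DNAJ symbol beside another gene were not assigned to either. They read 6.39 (control) and 6.12 (miR-941), 5.03 and 4.94, and 3.87 and 3.29, all well above the detection level. Their differences were -0.27, -0.09 and -0.58, all lower, and none of the DNAJ values above includes them.

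No detected gene of the partner lists differed by 2-fold. The 12 detected HSP70 genes had a median of 0.00 (5 higher, 4 lower and 3 equal). HSPA5, which encodes BiP, read 7.80 on both arrays, with its other detected probe set lower (median -0.08 over 2). The mitochondrial HSPA9 read 7.83 and 7.81. HSPA2 (2.09 and 2.85, 0.76) and HSPA12A (4.76 and 5.24, 0.48) were the highest members, each on 1 probe set. HSPH1 (-0.21) and HSPA6 (1.42 and 1.22, -0.20) were the lowest on the brightest probe set, the latter near the detection level. Of the 3 detected HSPH1 probe sets 1 was higher and 2 lower, with a median of -0.02. HSPA8, which encodes HSC70, and the heat-inducible HSPA1A and HSPA1B had no probe set with exactly 1 symbol and were not analysed here. Nucleotide exchange factors, which release ADP from HSP70, and other HSP70 regulators were higher for 10 of 12 genes and lower for 2. Their median was 0.09, where 46.3% of all detected genes were higher. Centred on all probe sets the split was 7 higher and 5 lower. GRPEL1, counted as higher, had a median of -0.04 over its 2 probe sets. The mitochondrial GRPEL2 read 6.89 and 7.38 (0.49) and HSPBP1 4.16 and 4.36 (0.20), while BAG4 (-0.34) and BAG2 (-0.10) were the lower ones. HSP90 genes and co-chaperones were higher for 11 of 14 and lower for 3, with a median of 0.05. Centred on all probe sets 6 were higher and 8 lower, with a median of -0.01. FKBP4 (0.41 on the brightest of 3 probe sets, median 0.03) and HSP90AB1 (9.51 and 9.77, 0.26) were highest. AHSA2P (-0.57) and the kinase co-chaperone CDC37 (6.03 and 5.61, -0.42) were lowest. AHSA2P, named as a pseudogene, was counted among the 14, while AHSA1 had no probe set with exactly 1 symbol. STIP1, counted as higher at 0.0047, had a median of -0.21 over its 2 probe sets.

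Partners and palmitoyl transferases of DNAJC5 had a median of 0.22 over 6 detected genes, with 4 higher and 2 lower. Over all detected genes the median was 0.00, with 46.3% higher and 42.4% lower. SGTA, which forms a complex with DNAJC5 and HSC70, read 4.24 (control) and 4.62 (miR-941) (0.38). DNM1, the vesicle-fission GTPase known as a DNAJC5 client, read 2.13 and 2.39 (0.26), and SNAP25 read 1.48 and 1.73 (0.25), both dim. Of the palmitoyl transferases that can anchor DNAJC5 to membranes, ZDHHC17 read 5.24 and 5.44 (0.20), ZDHHC7 5.11 and 4.79 (-0.32) and ZDHHC3 5.60 and 5.54 (-0.07), while ZDHHC15 was below the detection level. The other J-domain genes besides GAK were SEC63 (-0.07) and HSCB (-0.04), both slightly lower on the brightest probe set. Of the 4 detected SEC63 probe sets 2 were higher and 2 lower, with a median of 0.09. Of the heat shock factors HSF1 read 3.32 and 3.24 (-0.08) and HSF4 1.20 and 1.57 (0.37), the latter near the detection level.

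**Figure D4:**
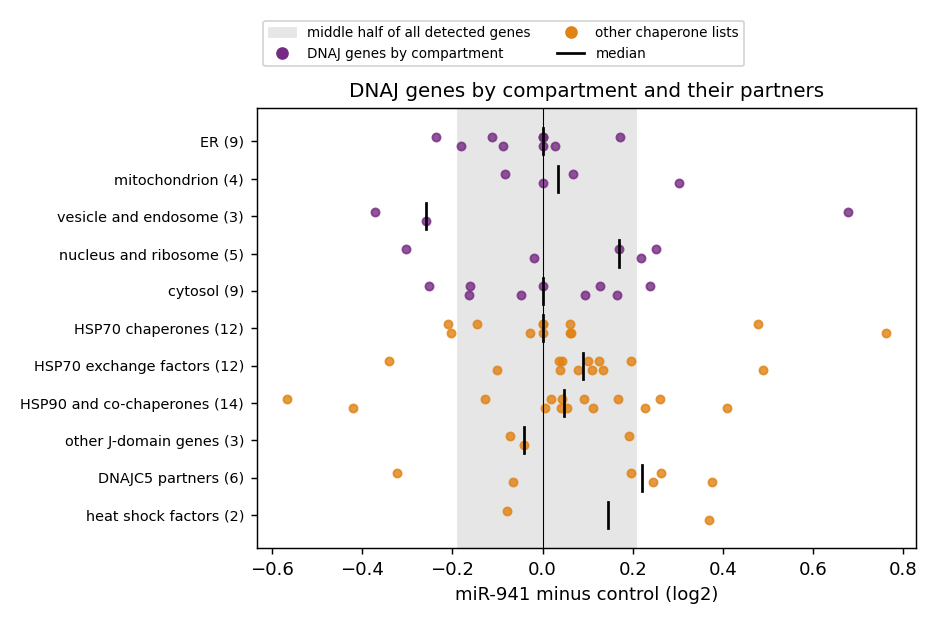
Differences (miR-941 minus control, log2) of the detected DNAJ genes by compartment (purple) and of genes in other chaperone lists (orange), with the number of genes in brackets and the median as a black bar. The shaded band holds the range between the quartiles of all detected genes, -0.19 to 0.21. Judged on the brightest probe sets, the ER genes lie between -0.24 and 0.17, and the vesicle and endosome genes run from -0.37 to 0.68.

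Promoters were searched for paired units of the heat shock element because several DNAJ genes are known as heat-inducible. Such a pair alone was not taken as a full element. The motif was a pair of inverted GAA units, GAANNTTC or TTCNNGAA, both of which read the same on either strand and can overlap. The window was the 250 bases before the start in RefSeq (GRCh38.p14). It was found for 7 of the 39 coding DNAJ genes with a promoter entry (17.9%), DNAJA1, DNAJA4, DNAJB1, DNAJB4, DNAJB6, DNAJB7 and DNAJC15, and for 14% of all genes in the table. The matches in detected genes are printed with 30 bases on either side where the window allows, and with the motif in capitals.
DNAJA1: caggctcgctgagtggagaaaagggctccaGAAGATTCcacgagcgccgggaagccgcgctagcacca
DNAJA4: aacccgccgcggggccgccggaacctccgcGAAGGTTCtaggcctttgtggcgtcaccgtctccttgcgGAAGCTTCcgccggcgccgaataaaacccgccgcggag
DNAJB1: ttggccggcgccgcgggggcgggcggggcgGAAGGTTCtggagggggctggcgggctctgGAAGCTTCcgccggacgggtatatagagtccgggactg
DNAJB4: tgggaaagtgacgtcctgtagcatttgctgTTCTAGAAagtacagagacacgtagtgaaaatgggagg
DNAJB6: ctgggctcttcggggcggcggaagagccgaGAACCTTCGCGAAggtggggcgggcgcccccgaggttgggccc
They lie at chr9:33025045-33025112 (plus), chr15:78264441-78264547 (plus), chr19:14518407-14518504 (minus), chr1:78004811-78004878 (plus) and chr7:157336843-157336915 (plus), in the order printed. DNAJA4 and DNAJB1 each held 2 separate pairs, and in DNAJB6 overlapping pairs formed a run of alternating units. The 5 detected genes with the motif had 2 higher, 2 lower and 1 equal, with a median difference of 0.00. The 29 detected genes with a promoter entry and no match had 12 higher, 13 lower and 4 equal, also with a median of 0.00.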

How the data were processed

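Biotin-labelled antisense RNA from 2 precipitates was hybridised to Affymetrix U133 Plus arrays. The authors deposited log2 values, 1 per probe set, made with the RMA package of R per the labels' design text. RMA, affy and MAS5 are listed in the submitters' processing notes, with no version or role. That the values are log2 is inferred: they reach 13.7, above the natural log of a 16-bit reading (11.1). Any centring, and the genome build, are not given in the sources used here. Array medians were 0.92 (control) and 0.98 (miR-941). Groups follow the transfected oligonucleotide, 1 array each, and this number limits the precision.

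Probe sets with exactly 1 symbol (41091 of 54675) were named from the platform annotation and updated through Entrez identifiers to RefSeq (GRCh38.p14), where 41037 of them and all 47 members were found. Differences are miR-941 minus control. Counting was tested on simulated data with known shifts. The members and lists were chosen with earlier results of these data known. Named genes are DNAJC5; the 2 highest, 2 lowest and brightest of each class and compartment; those differing by 0.5 or more; those with 3 or more detected probe sets one way; those whose 2 brightest probe sets differ by 0.5 or more; and the 2 highest and lowest of each list. Other detected members were added after their values were seen. Analyses used python 3.11.15, pandas 2.3.3, scipy 1.17.1 and, for the lowess trend (span 0.3), statsmodels 0.14.6. The comparison with protein length was not run, and gene span took its place.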

Additional observations from a re-analysis of the deposited data

How the results depend on the processing

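The median differences over the DNAJ genes and over classes A, B and C stayed within the within-gene SD divided by the square root of the number of genes under these alternatives: the mean over probe sets, no _x_at or _s_at probe sets, no level filter, the 75th percentile of level, a lowess trend removed, each array centred on its detected genes, values below the detection level raised to it and, chosen after seeing the data, the median over probe sets and the noncoding transcripts included. This limit narrows with the number of genes, which share both arrays and are not replicates, so it is only a yardstick. Including the noncoding transcripts could not change a value, because all of them were below the detection level. With each array centred on all its probe sets, also chosen after seeing the data, every difference fell by 0.0598. The median became -0.0598 over the DNAJ genes, over class B and over class C, and -0.165 over class A. Only the DNAJ genes and class C moved past the limit, which is wider for classes with fewer genes. The count of DNAJ genes past 2-fold was 0 in each of these settings. At 1.5-fold it was 1 (DNAJC6). DNAJC5 had -0.26 on its brightest probe set, 0.03 as the mean and 0.095 as the median over its probe sets, and no value without _s_at probe sets. Over the other genes named one by one, 342 of 349 values moved by less than the within-gene SD and 7 by more, and 8 changed sign. The 7 were 3 of 36 as the mean over probe sets, 3 of 36 as the median and 1 of 30 without _x_at and _s_at probe sets. The other settings kept the probe set of each gene, so most of the 349 values had little or no room to move. Genes 2-fold higher and lower over the whole table were 30 and 38, 4 and 7 above the 75th percentile, 24 and 18 as the mean over probe sets, 20 and 45 with the trend removed, 13 and 51 centred on all probe sets, and 22 and 30 with low values raised to that level. No paired analysis was possible because there is a single array in either group, and for the same reason none could be left out. Dim probe sets take few distinct values, which limits what can be read near the detection level.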
